A study of Homo sapiens with 2 samples.

Results

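Molecular chaperones hold, fold and refold other proteins. The genes described here are 62 protein-coding genes for chaperones and their partners, in cultured human cells after 48 hours with iMQT_020 or with vehicle. They were chosen by symbol from the 46427 gene rows of the deposited table, by a rule that uses no values but with earlier results of these data known. They comprise the HSPA genes and HSPH1, the HSP90 genes, the small heat shock proteins HSPB, the class A and class B J-domain cochaperones DNAJA and DNAJB, the BAG genes, HSPD1 and HSPE1, the subunits of the chaperonin TRiC, and the heat shock factors HSF1 and HSF2. Another 14 rows with such symbols were not protein-coding and were left out.

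In the cytosol, HSP70 proteins bind stretches of unfolded polypeptide in a cycle driven by ATP. J-domain proteins stimulate the ATPase of HSP70, and HSP110 and BAG proteins release its ADP. HSP90 acts on late-folding clients such as kinases and steroid receptors, and TRiC encloses actin, tubulin and other proteins in a chamber. HSF1 is the transcription factor that induces many of these genes when unfolded proteins accumulate, and tumour cells, pancreatic ones included, are known for high levels of HSP70 and HSP90.

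Total RNA was extracted with Trizol from 1 sample of cells given iMQT_020 and 1 given vehicle, for 48 hours each. The labels call the cells MiaPaca2, an established line from a human pancreatic adenocarcinoma, and the series title calls the treatment an inhibitor of a mitochondrial glutamine transporter. The comparison asks how transcript levels differ under it. With 1 library per treatment there was no replicate, no difference has a replicate check and no test was made. What the treatment did and what else set these libraries apart cannot be told apart.

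The libraries held 59139157 counts (iMQT_020) and 67095283 counts (vehicle). Markers went partly against the label of the line. MIA PaCa-2 is known for a deletion of CDKN2A, and this gene was at 208 TPM with iMQT_020 and 278 TPM with vehicle (TPM, a level per transcript length that sums to the same total in each library). The keratin gene KRT8 was at 92.3 TPM with iMQT_020 and 128 TPM with vehicle, and the adhesion receptor gene CD44 had 3 counts with iMQT_020 and 16 with vehicle. The epithelial gene KRT19 and the leukocyte gene PTPRC had 0 counts in both libraries, and EPCAM had 0 with iMQT_020 and 4 with vehicle. KRT18 was at 77.5 TPM with iMQT_020 and 97.4 TPM with vehicle, and the mesenchymal gene VIM at 438 and 403, in the same order. CDKN2B and MTAP, of the segment of CDKN2A, were at 13.5 and 26.2 TPM with iMQT_020 and 8.04 and 33.7 TPM with vehicle. The fibroblast gene COL1A1 had 1624 counts with iMQT_020 and 2797 with vehicle. COL3A1 had 21 and 49, and the endothelial gene PECAM1 29 and 0, in that order.

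Heat-inducible chaperone genes are known for heat shock elements, in which the letters GAA and TTC alternate and which HSF1 binds. Chaperone genes of the endoplasmic reticulum (ER) are known for the ER stress element. Stretches of 100 bases upstream of the start sites of 11 members are shown so that these letters can be read beside the ratios that follow: members with the 3-unit heat shock element on either side of a ratio of 0, inducible genes with a single unit pair, and the main ER chaperones. They run 5′ to 3′ on the strand of the gene and come from RefSeq (GRCh38.p14). Each stretch was placed to hold a match, and for a gene with several start sites it comes from a start site with such a match. Other start sites of HSP90AA1, HSP90AB1, DNAJB4 and HSPD1 had no match to these letters nearby. In the first 9, capitals mark matches to GAANNTTC or TTCNNGAA, a pair of units, and a run of 13 or more capitals holds the 3-unit form. In HSPA5 and HSP90B1, capitals mark the ER stress element, CCAAT and CCACG with 9 bases of any kind between them, or its reverse complement, CGTGG and ATTGG with the same gap.
HSPA8: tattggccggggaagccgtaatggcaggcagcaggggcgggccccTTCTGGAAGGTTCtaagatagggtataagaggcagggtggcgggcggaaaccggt
HSP90AA1: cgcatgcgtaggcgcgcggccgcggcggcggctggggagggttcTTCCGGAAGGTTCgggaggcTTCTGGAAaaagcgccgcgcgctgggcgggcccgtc
HSP90AB1: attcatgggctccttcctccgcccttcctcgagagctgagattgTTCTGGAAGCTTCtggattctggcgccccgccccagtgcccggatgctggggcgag
DNAJB6: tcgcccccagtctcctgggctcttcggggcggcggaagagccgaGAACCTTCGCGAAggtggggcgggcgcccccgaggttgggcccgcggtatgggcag
HSPA1B: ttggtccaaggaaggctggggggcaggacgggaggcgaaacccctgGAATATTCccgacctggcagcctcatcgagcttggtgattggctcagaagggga
DNAJB4: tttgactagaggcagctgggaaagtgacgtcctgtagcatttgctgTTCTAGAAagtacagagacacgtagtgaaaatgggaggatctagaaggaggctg
HSPA6: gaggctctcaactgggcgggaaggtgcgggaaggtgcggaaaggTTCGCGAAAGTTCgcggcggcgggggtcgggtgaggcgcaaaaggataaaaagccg
HSPB1: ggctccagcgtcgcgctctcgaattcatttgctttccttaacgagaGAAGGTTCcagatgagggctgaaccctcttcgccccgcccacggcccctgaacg
HSPD1: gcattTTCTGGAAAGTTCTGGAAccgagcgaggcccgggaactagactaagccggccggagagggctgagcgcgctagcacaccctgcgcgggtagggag
HSPA5: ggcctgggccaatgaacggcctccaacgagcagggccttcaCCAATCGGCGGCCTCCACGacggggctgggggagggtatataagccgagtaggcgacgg
HSP90B1: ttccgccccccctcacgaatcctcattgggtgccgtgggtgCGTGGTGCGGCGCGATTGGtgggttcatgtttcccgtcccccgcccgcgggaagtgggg
The stretches are those of HSPA8 at chr11:123062137-123062236 on the minus strand, HSP90AA1 at chr14:102087077-102087176 on the minus strand, HSP90AB1 at chr6:44247787-44247886 on the plus strand and DNAJB6 at chr7:157336829-157336928 on the plus strand. Next come those of HSPA1B at chr6:31827587-31827686 on the plus strand, DNAJB4 at chr1:78004795-78004894 on the plus strand, HSPA6 at chr1:161524422-161524521 on the plus strand and HSPB1 at chr7:76302445-76302544 on the plus strand. The last are those of HSPD1 at chr2:197499991-197500090 on the minus strand, HSPA5 at chr9:125241351-125241450 on the minus strand and HSP90B1 at chr12:103930280-103930379 on the plus strand.

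Genes that reached 50 counts in either library were called measured, and 50 of the 62 members were. HSPA6 reached that minimum in the vehicle library only. Ratios are log2 ratios of CPM (counts scaled to a common library total), iMQT_020 over vehicle. The range in parentheses after a ratio is an exact 95% interval that covers counting error only. Of the 50 measured members, 31 had a log2 ratio above 0 and 19 below, with a median of 0.07. Over all 14805 measured genes, 47.3% were above 0 and the median was −0.02. At least 2-fold higher with iMQT_020 was 1 member, CCT6B, beside 2.15% of all measured genes. At least 2-fold lower were 0 members, beside 3.09% of all measured genes. At a 1.5-fold rule CCT6B and DNAJB4 were higher, beside 6.3% of all genes, and HSPA6 and HSPA12A lower, beside 10.2%. Among the 46 members with at least 1000 counts in a library, the 1.5-fold rule held DNAJB4 above, beside 2.59% of the 9312 genes of such counts, and HSPA12A below, beside 5.42%. At 2-fold, 0 of the 46 were higher or lower, beside 0.322% and 0.956% of those genes. Most members, like most of all measured genes, therefore differed by less than 1.5-fold.

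Transcripts of HSPA8, HSPA1A, HSPA1B, HSPH1, HSP90AA1 and HSP90AB1, which belong to the HSP70, HSP110 and HSP90 genes of the cytosol, stood higher in the iMQT_020 library. HSPA4, the most abundant HSP110 gene, was nearly level at 0.09, and at −0.02 relative to genes of like GC content and length. Members of the ER stood on both sides of 0, and those of the mitochondrion were close to equal or lower. Sorting by compartment was done after the values were seen. Of the 12 HSP70, HSP110 and HSP90 genes outside the ER and mitochondrion, 10 had ratios above 0, with a median of 0.30, and HSPA6 and HSPA12A were below. Relative to genes of like GC content and length, 8 of these 12 were above 0. Of the 7 ER members HSPA5, HSP90B1, HSPA13, DNAJB9, DNAJB11, DNAJB12 and DNAJB14, 4 were above 0, with a median of 0.08. Without the ER membrane proteins DNAJB12 and DNAJB14 that median was −0.06, so the ER members have no stable direction. The 4 mitochondrial members HSPA9, HSPD1, HSPE1 and DNAJA3 were below 0, with a median of −0.07, though HSPD1 was above 0 in deposited TPM. Summed levels per length of the 12 genes were 10198 TPM with iMQT_020 and 7656 TPM with vehicle. The 7 ER members summed to 1969 TPM with iMQT_020 and 1983 TPM with vehicle, and the mitochondrial members to 3041 TPM with iMQT_020 and 3065 TPM with vehicle. The 62 members together took 2.48% of the counts with iMQT_020 (95% Wilson interval 2.48% to 2.49%) and 2.22% with vehicle (2.21% to 2.22%). These intervals too cover counting error only and say nothing of other differences between the libraries. Fewer cells of a kind and less RNA per cell cannot be told apart in bulk RNA.

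**Figure D1:**
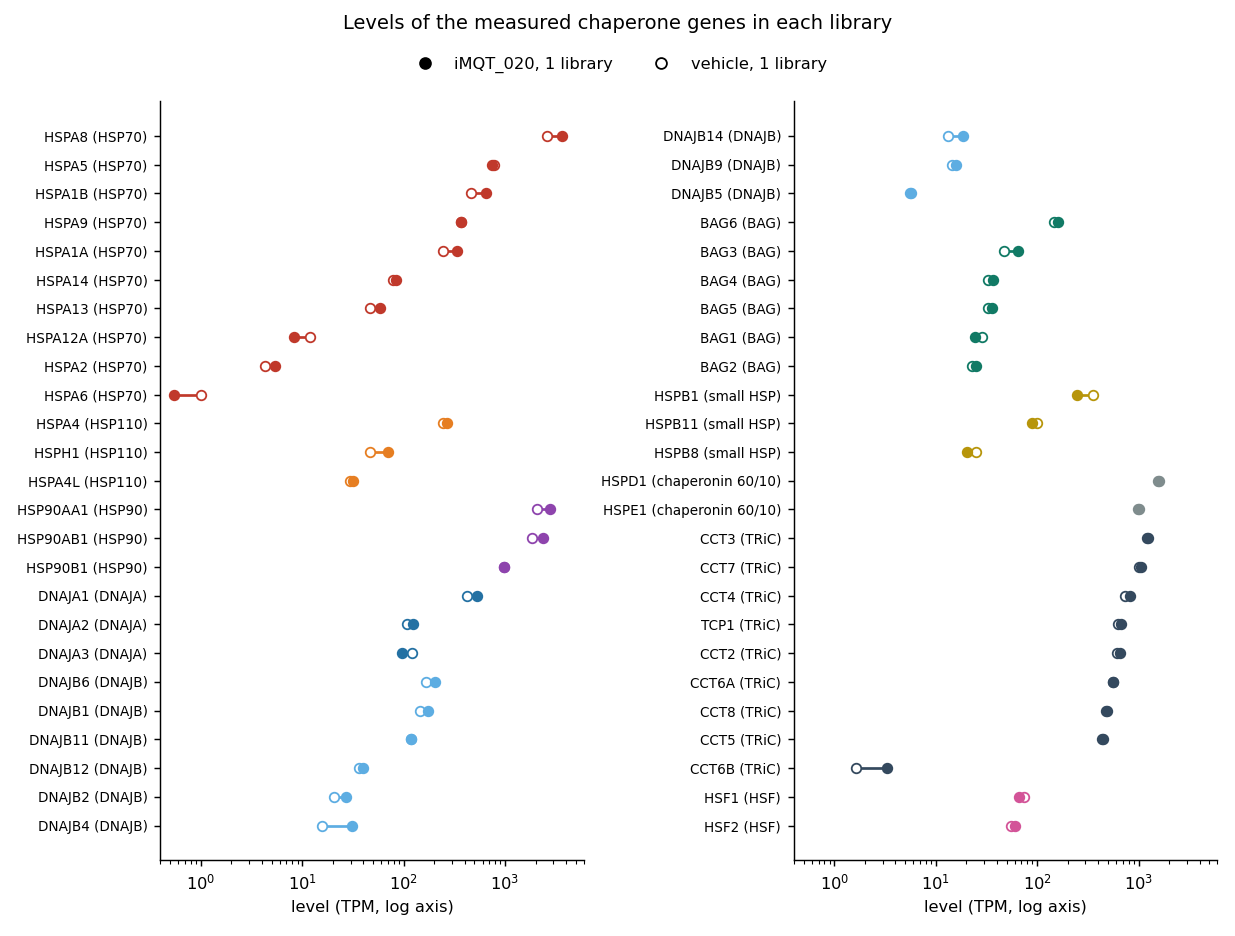
Levels of the 50 measured members in TPM on a log axis, grouped by family. Filled points are the iMQT_020 library, open points the vehicle library, and a line joins the points of a gene; HSPA8 had the highest level in both libraries, 3623 TPM with iMQT_020 and 2611 TPM with vehicle.

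HSPA8 encodes the constitutive HSP70 of the cytosol, also called HSC70, and lies on chromosome 11 (GRCh38, 123057489 to 123062462). It had 208806 counts and 3623 TPM in the iMQT_020 library, against 175802 counts and 2611 TPM in the vehicle library. Its log2 ratio was 0.42 (0.42 to 0.43), and 11.3% of all measured genes had a higher one. HSPA8 holds 3 small nucleolar RNA genes in its gene body. Its printed stretch has a 3-unit heat shock element at bases −55 to −43 from the start site, and another lies at −230 to −218.

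HSPA1A and HSPA1B encode the classical heat-inducible HSP70 and are near-identical neighbours on chromosome 6, so the counting could split their reads. HSPA1A had 20764 counts and 339 TPM with iMQT_020, against 17550 counts and 245 TPM with vehicle, and a log2 ratio of 0.42 (0.39 to 0.45). HSPA1B had 41412 counts and 644 TPM with iMQT_020, against 34688 counts and 462 TPM with vehicle, and a log2 ratio of 0.43 (0.41 to 0.45). Both copies stood higher with iMQT_020 by a like amount, and their summed counts gave 0.43 (0.41 to 0.44). In TPM, HSPA8 was at 10.7 (iMQT_020) and 10.6 (vehicle) times HSPA1A, so the constitutive and inducible genes kept nearly the same proportions.

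HSPA6 encodes a strictly inducible HSP70 that mice lack. It had 33 counts and 0.546 TPM with iMQT_020, against 71 counts and 1.001 TPM with vehicle, and a log2 ratio of −0.92 (−1.57 to −0.31). It was thus scarce in both libraries and lower with iMQT_020, although its printed stretch carries a 3-unit element as that of HSPA8 does. HSPA12A, a distant relative of HSP70, had 1190 counts with iMQT_020 and 2021 with vehicle, a log2 ratio of −0.59 (−0.69 to −0.48). HSPA12A overlaps 5 other genes, its antisense gene among them, and reads of either strand cannot be told apart here. HSPA2, best known from the testis, was at 0.29 (0.08 to 0.51), and HSPA14, which works at the ribosome, at 0.05 (−0.01 to 0.11).

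The 3 HSP110 proteins release ADP from HSP70. HSPH1, the heat-inducible one, had 9090 counts and 69.7 TPM with iMQT_020, against 7100 counts and 46.5 TPM with vehicle. Its log2 ratio of 0.53 (0.49 to 0.58) was the highest of the 12 HSP70, HSP110 and HSP90 genes outside the ER and mitochondrion, and 7.55% of all measured genes had a higher one. HSPA4, the most abundant HSP110 gene, was at 0.09 (0.07 to 0.11) and HSPA4L at 0.03 (−0.01 to 0.07). Relative to genes of like GC content and length, these 2 were below 0, at −0.02 and −0.13, and HSPH1 was at 0.43. In TPM, HSPA4 was at 3.87 (iMQT_020) and 5.28 (vehicle) times HSPH1.

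Both cytosolic HSP90 genes stood higher with iMQT_020. HSP90AA1, the inducible isoform, had 228759 counts and 2773 TPM with iMQT_020, against 200481 counts and 2075 TPM with vehicle, and a log2 ratio of 0.37 (0.36 to 0.38). HSP90AB1, the constitutive isoform, had 153280 counts and 2349 TPM with iMQT_020, against 140392 counts and 1843 TPM with vehicle, and a log2 ratio of 0.30 (0.29 to 0.31). The counting interval of the inducible gene lay above that of the constitutive one, and relative to genes of like GC content and length the order was reversed, at 0.28 and 0.33. HSP90AA1 overlaps WDR20, which had 1937 counts with iMQT_020 and 1644 with vehicle. The printed stretches of both HSP90 genes carry 3-unit elements.

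HSPA5 and HSP90B1, the abundant ER forms of these proteins, stood near 0. HSPA5, the ER HSP70 known as BiP, had 74371 counts and 743 TPM with iMQT_020, against 90218 counts and 772 TPM with vehicle, and a log2 ratio of −0.10 (−0.12 to −0.09). HSP90B1, the ER HSP90, had 69318 counts and 976 TPM with iMQT_020, against 81428 counts and 982 TPM with vehicle, and a log2 ratio of −0.06 (−0.07 to −0.04). Both were slightly lower with iMQT_020, and their printed stretches carry ER stress elements. HSPA13, a microsomal HSP70, was higher at 0.28 (0.23 to 0.33). The ER J-domain genes DNAJB9 and DNAJB11, both partners of BiP, were at 0.08 (−0.05 to 0.20) and −0.06 (−0.12 to −0.0089), and each changed sign relative to genes of like GC content and length. In TPM, HSPA8 was at 4.88 (iMQT_020) and 3.38 (vehicle) times HSPA5.

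In the mitochondrion, HSPA9, the HSP70 known as mortalin, had 41117 counts and 366 TPM with iMQT_020, against 48842 counts and 372 TPM with vehicle, and a log2 ratio of −0.07 (−0.09 to −0.05). HSPD1, the HSP60 chaperonin, had 1587 TPM with iMQT_020 and 1569 TPM with vehicle, and a log2 ratio in CPM of −0.03 (−0.04 to −0.02). HSPE1, its lid, had 993 TPM with iMQT_020 and 1001 TPM with vehicle, and a log2 ratio in CPM of −0.06 (−0.09 to −0.03). These 3 genes were close to level, and HSPD1 was above 0 on log2(TPM + 1), at 0.02. HSPD1 and HSPE1 are neighbours on chromosome 2, and HSPD1 was at 1.60 (iMQT_020) and 1.57 (vehicle) times HSPE1 in TPM. HSPE1 shares sequence with the read-through gene HSPE1-MOB4, and their summed counts gave −0.08 (−0.11 to −0.04). The printed stretch of HSPD1 carries overlapping 3-unit elements. DNAJA3, the mitochondrial J-domain protein, was lower, with 6393 counts with iMQT_020 and 9530 with vehicle and a log2 ratio of −0.40 (−0.45 to −0.35).

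**Figure D2:**
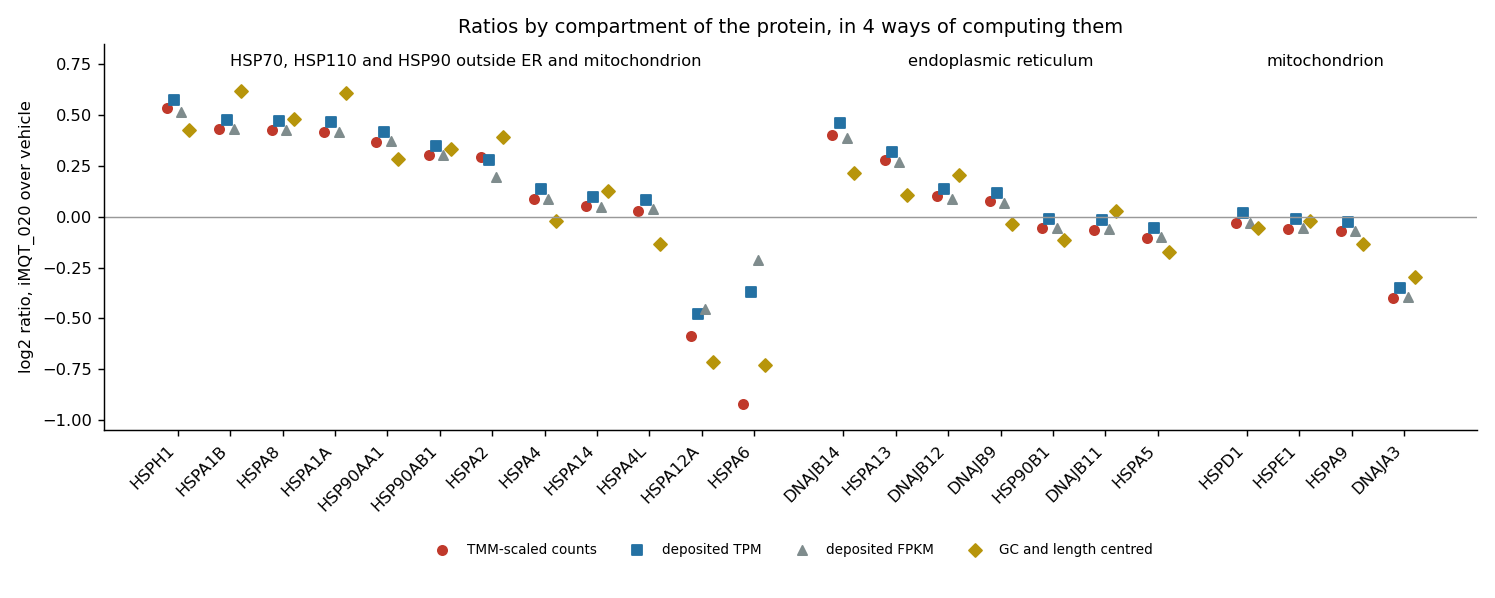
Log2 ratios, iMQT_020 over vehicle, of the 12 HSP70, HSP110 and HSP90 members outside the ER and mitochondrion, the 7 ER members and the 4 mitochondrial members, from scaled counts, deposited TPM, deposited FPKM and counts centred on GC content and length. HSPH1, HSPA1B, HSPA8, HSPA1A, HSP90AA1 and HSP90AB1 lie above 0 in all 4, HSPA6, HSPA12A and DNAJA3 lie below 0 in all 4, and HSPA4, HSPA4L, DNAJB9, DNAJB11 and HSPD1 lie on both sides of 0.

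Among the J-domain genes, DNAJA1, a main partner of HSPA8, had 31594 counts and 534 TPM with iMQT_020, against 28858 counts and 418 TPM with vehicle, and a log2 ratio of 0.31 (0.28 to 0.33). DNAJA2, its close relative, was at 0.14 (0.10 to 0.18). Of the 9 measured DNAJB genes, 7 were above 0, with a median of 0.21. DNAJB4, a cytosolic partner of HSP70, had 2271 counts and 31.1 TPM with iMQT_020, against 1334 counts and 15.8 TPM with vehicle. Its log2 ratio of 0.94 (0.85 to 1.04) was the highest of the class and just short of 2-fold, and 2.43% of all measured genes had a higher one. DNAJB4 overlaps FUBP1, which had 14780 counts with iMQT_020 and 14375 with vehicle and a log2 ratio of 0.22 (0.18 to 0.25). The part of FUBP1 reads in the DNAJB4 value was not tested.

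DNAJB1, the heat-inducible partner of HSPA1A, had 10018 counts and 175 TPM with iMQT_020, against 9774 counts and 146 TPM with vehicle. Its log2 ratio of 0.21 (0.17 to 0.25) lay below those of HSPA1A and HSPA1B, and it overlaps TECR, which was at −0.27 (−0.33 to −0.22). DNAJB6, which suppresses protein aggregation, had the highest level of the class, 204 TPM with iMQT_020 and 165 TPM with vehicle, and a log2 ratio in CPM of 0.23 (0.19 to 0.27). DNAJB14 and DNAJB12, both in the ER membrane, were at 0.40 (0.32 to 0.48) and 0.10 (0.04 to 0.17), and the neuronal DNAJB2 at 0.37 (0.26 to 0.47). DNAJB5 was the lowest of the class at −0.11 (−0.30 to 0.09).

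BAG proteins bind the ATPase domain of HSP70. BAG3, heat-inducible and a link between HSP70 and autophagy, had 4238 counts and 64.8 TPM with iMQT_020, against 3586 counts and 47.0 TPM with vehicle, and a log2 ratio of 0.42 (0.35 to 0.48). BAG1, which links HSP70 to the proteasome, had 2366 counts and 24.2 TPM with iMQT_020, against 3249 counts and 28.5 TPM with vehicle, and a log2 ratio of −0.28 (−0.36 to −0.20). BAG3 and BAG1 thus stood on opposite sides of 0. BAG6, a holdase for membrane proteins and the most abundant of the 6, was at 0.10 (0.07 to 0.13). BAG4 was at 0.13 (0.07 to 0.20), BAG5 at 0.08 (0.02 to 0.14) and BAG2 at −0.0092 (−0.08 to 0.06). The family median was 0.09, and −0.0081 relative to genes of like GC content and length.

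Small heat shock proteins bind unfolding proteins without ATP, and the 3 measured ones were lower with iMQT_020. HSPB1, the heat-inducible HSP27, had 4924 counts and 248 TPM with iMQT_020, against 8194 counts and 354 TPM with vehicle. Its log2 ratio was −0.56 (−0.61 to −0.51), opposite in sign to those of the inducible HSPA1A and HSPA1B. HSPB8, which works with BAG3, was at −0.35 (−0.47 to −0.23), whereas BAG3 was above 0. HSPB11, a ciliary transport protein that carries the family name, was at −0.21 (−0.31 to −0.12). In TPM, HSPA8 was at 14.6 (iMQT_020) and 7.38 (vehicle) times HSPB1.

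Ratios moved with the GC content of the transcript. The median log2 ratio of measured genes was 0.13 in the GC-poorest of 10 bins (median 37.0% GC) and −0.31 in the GC-richest (64.4% GC). HSPB1, at 65.3% GC, was at −0.12 relative to genes of like GC content and length. HSPA1B and BAG3, at 58.8% and 56.9% GC, were at 0.62 and 0.62 on that scale, farther above 0 than before. HSF1, at 63.9% GC, changed sign to 0.11. The part of GC content in these ratios was not tested. After this centring 28 of the 50 measured members were above 0, beside 49.8% of all genes with a centred ratio, so the members' share lies nearer to that of all genes than before centring. The 3 small heat shock proteins were below 0 on that scale too.

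**Figure D3:**
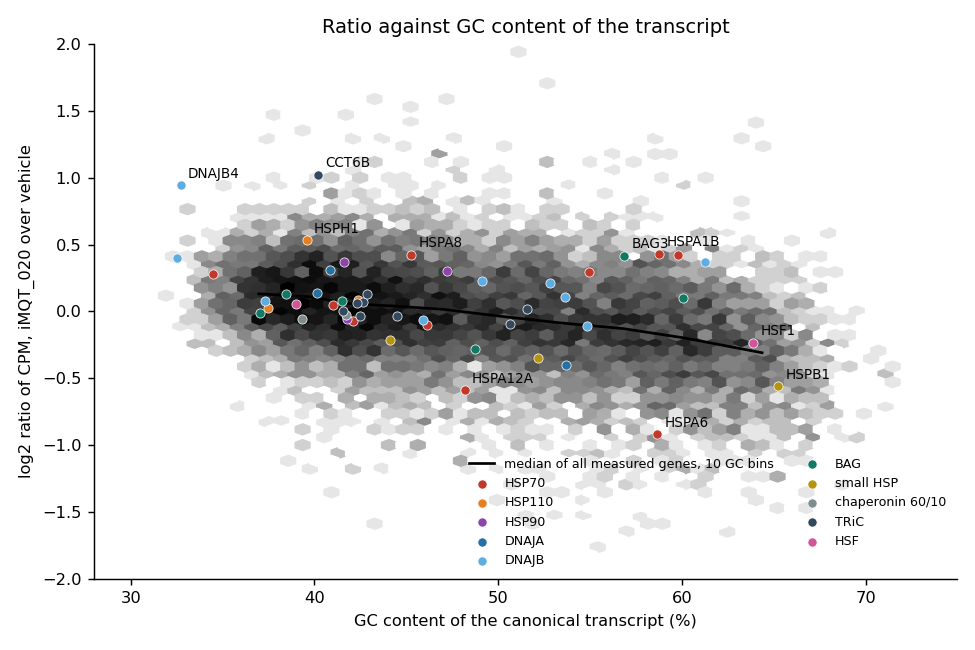
Log2 ratio of CPM, iMQT_020 over vehicle, against GC content (%) of the canonical transcript. Grey shading counts measured genes (darker is more), the black line joins their medians in 10 bins, and coloured points are members by family; the line falls toward high GC, HSPB1 lies near its end, and HSPA1B and BAG3 lie above it.

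TRiC is a double ring of 8 different subunits, TCP1 and CCT2 to CCT8, with CCT6A in most tissues. These 8 genes were nearly level, with ratios from −0.10 to 0.13. CCT4 was highest, with 829 TPM with iMQT_020 and 735 TPM with vehicle and a log2 ratio in CPM of 0.13 (0.11 to 0.15). CCT3 was lowest, with 1204 TPM with iMQT_020 and 1246 TPM with vehicle and a log2 ratio in CPM of −0.10 (−0.11 to −0.08). Between them, CCT2 was at 0.07 (0.05 to 0.09), TCP1 at 0.06 (0.04 to 0.08) and CCT7 at 0.02 (−0.0018 to 0.03). CCT8 was at 0.0015 (−0.02 to 0.03), CCT6A at −0.03 (−0.05 to −0.01) and CCT5 at −0.04 (−0.06 to −0.02). These last 3 took the other sign under at least 1 other scaling or unit, so they have no stable direction. CCT3 had the highest and CCT5 the lowest level of the 8 in both libraries, CCT5 with 442 TPM with iMQT_020 and 439 TPM with vehicle.

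CCT6B, a copy of CCT6A best known from the testis, was the member past 2-fold. It had 157 counts and 3.31 TPM with iMQT_020, against 87 counts and 1.65 TPM with vehicle, and a log2 ratio of 1.02 (0.64 to 1.42). The interval holds values on both sides of 2-fold. On log2(TPM + 1), which understates differences of low genes, it was at 0.70. In TPM, CCT6A was at 169 (iMQT_020) and 336 (vehicle) times CCT6B, and the part of reads from CCT6A or its copies in the CCT6B value was not tested.

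**Figure D4:**
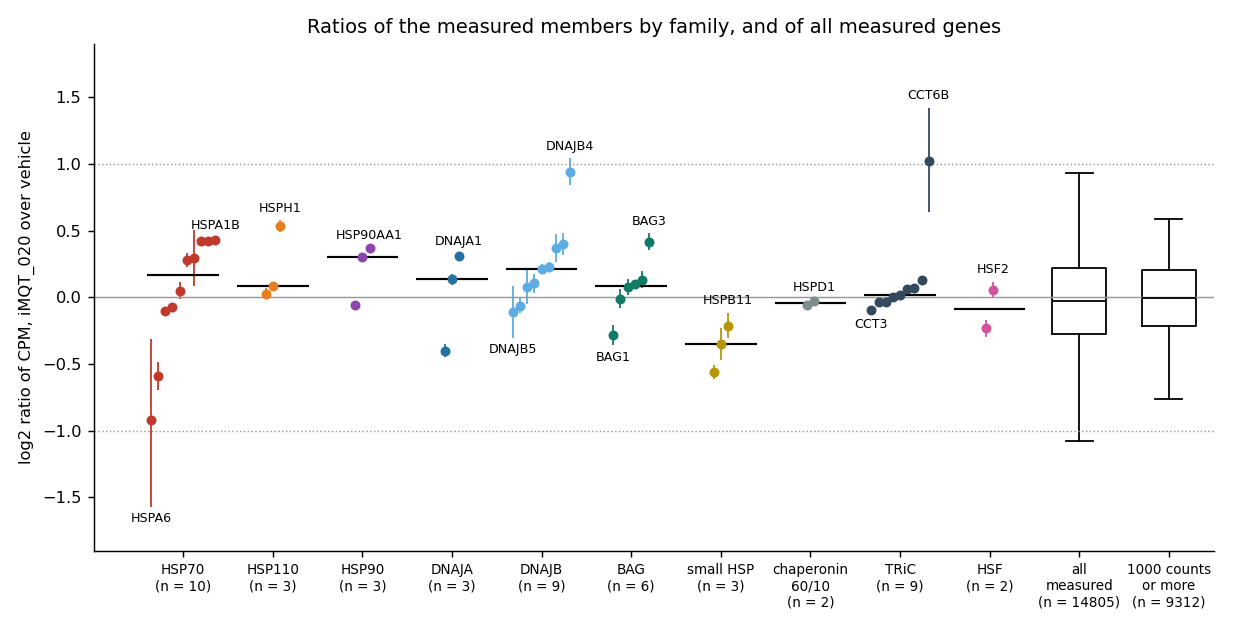
Log2 ratios of CPM, iMQT_020 over vehicle, of the measured members by family (points with exact 95% counting intervals; bars are family medians), beside all 14805 measured genes and the 9312 genes with at least 1000 counts (boxes, quartiles; whiskers, central 95%). Dotted lines mark 2-fold, and only the point of CCT6B lies beyond them.

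The heat shock factors differed little. HSF1 had 3562 counts and 66.8 TPM with iMQT_020, against 4732 counts and 74.3 TPM with vehicle, and a log2 ratio of −0.23 (−0.30 to −0.17). HSF2, a related factor that can pair with HSF1, had 3975 counts and 59.96 TPM with iMQT_020, against 4322 counts and 55.7 TPM with vehicle, and a log2 ratio of 0.06 (−0.0070 to 0.12). The activity of HSF1 is set largely at the protein level, which was not measured.

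Both strands of promoter windows of 300 bases, from 250 before to 50 after a start site, were searched for the letters of the printed elements. RefSeq windows were matched for 55 of the 62 members, 73 windows in all. A unit pair, GAANNTTC or TTCNNGAA, was in 35.6% of the member windows and 13.5% of the 35116 windows of all genes. The 3-unit form, GAANNTTC followed by NNGAA or TTCNNGAA followed by NNTTC, which contains unit pairs, was in 9.59% of member windows and 0.490% of all windows. The ER stress element was in 2.74% of member windows, those of HSPA5 and HSP90B1, and 0.0769% of all windows. A match is a description of letters and not a bound site.

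The 7 members with a 3-unit match were HSPA8, HSP90AA1, HSP90AB1, DNAJA1, DNAJB6, HSPD1 and HSPA6. Of these, 5 had log2 ratios above 0 and 2 below, with a median of 0.30. Of the 39 measured members with a window and no 3-unit match, 24 were above 0, with a median of 0.06. The 2 below 0 were HSPA6 and HSPD1. HSPA6 had 33 counts with iMQT_020 and 71 with vehicle, and reached the count minimum in the vehicle library only. HSPD1 was at −0.03 in CPM and 0.02 in deposited TPM, so it has no stable direction. Whether members with the match stand on both sides of 0 therefore cannot be told from these genes. HSPH1 and BAG3, both above 0, had no unit pair in the windows searched.

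**Figure D5:**
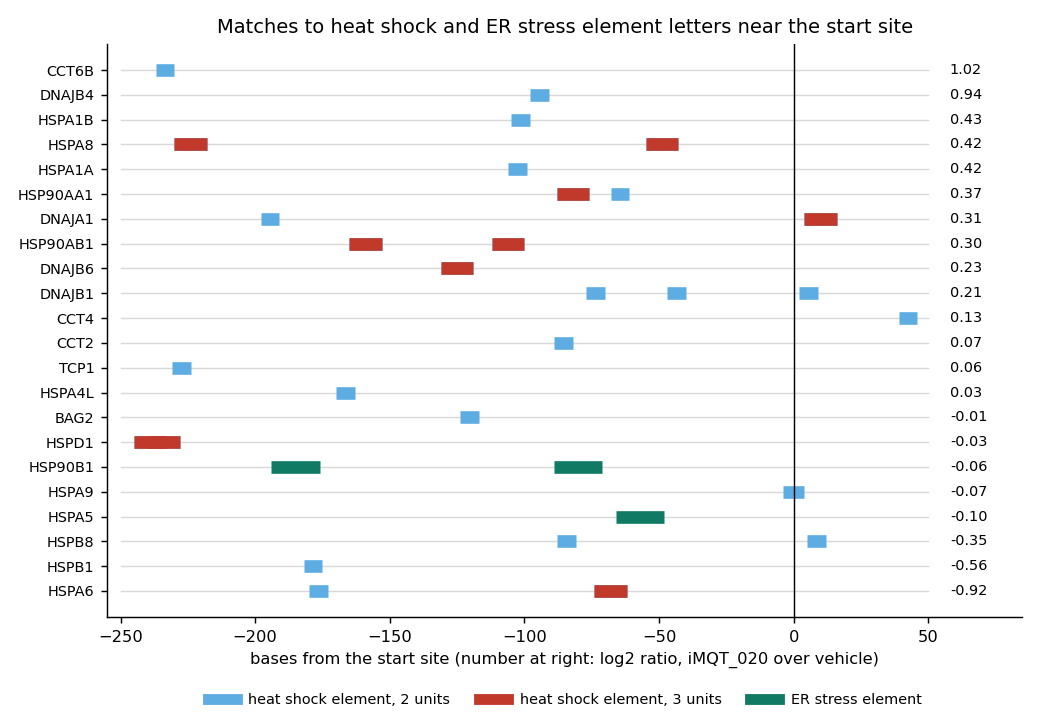
Positions of matches, in bases from the start site, for the 22 measured members with any match, from the highest log2 ratio (top, value at right) to the lowest. Red is the 3-unit heat shock element, blue the unit pair and green the ER stress element; red bars run from HSPA8 to HSPA6, and the green bars belong to HSP90B1 and HSPA5.

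The other 12 members were not measured. HSPA1L had 44 counts with iMQT_020 and 41 with vehicle, HSPA12B 16 in each library, and DNAJB13 8 with iMQT_020 and 9 with vehicle. Of the small heat shock proteins, HSPB6 had 16 counts with iMQT_020 and 12 with vehicle, HSPB3 7 and 9, HSPB7 6 and 4, HSPB2 6 and 0, and HSPB9 0 and 4, in the same order. DNAJA4, DNAJB3, DNAJB7 and DNAJB8 had 0 counts in both libraries, which allows up to 0.0506 CPM with iMQT_020 and 0.0448 CPM with vehicle (3 counts, counting error only).

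Of 89 other chaperone and cochaperone genes, 83 were measured and 32 had log2 ratios above 0, with a median of −0.04, beside 47.3% above 0 over all measured genes. Relative to genes of like GC content and length, 41 of the 83 were above 0, beside 49.8% of all genes. At least 2-fold higher with iMQT_020 were 0 of the 83, and 1 was at least 2-fold lower, HSF4, a heat shock factor best known from the lens. HSF4 had 90 counts with iMQT_020 and 234 with vehicle and a log2 ratio of −1.20 (−1.57 to −0.85). Of the 22 genes listed as HSP90 cochaperones, 7 were above 0, and 11 when centred in that way. The lowest was TRAP1, at −0.56 (−0.60 to −0.53), which is itself the mitochondrial HSP90 and not a cochaperone. AHSA2P came next at −0.43 (−0.53 to −0.32), and the highest was TSC1, a cochaperone in the TSC complex, at 0.65 (0.59 to 0.71). The 9 HSP70 cochaperone genes outside the BAG and J-domain families were below 0, from the ER exchange factor SIL1 at −0.59 (−0.69 to −0.49) to HYOU1, another, at −0.02 (−0.05 to 0.0055). Relative to genes of like GC content and length, 3 of these 9 were above 0.

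The DNAJC family, the remaining class of J-domain proteins, had 14 of 29 measured genes above 0, and 13 when centred. DNAJC6, the auxilin that uncoats clathrin vesicles, was highest with 971 counts with iMQT_020 and 564 with vehicle and a log2 ratio of 0.96 (0.81 to 1.11). DNAJC17 was lowest in scaled counts, at −0.45 (−0.61 to −0.29). In TPM it was nearly level, at 8.52 with iMQT_020 and 8.68 with vehicle, so its place as lowest holds for counts only. Prefoldin hands actin and tubulin to TRiC, and of 12 measured prefoldin and TRiC cofactor genes 5 were above 0, and 7 when centred, from PFDN6 at −0.47 (−0.55 to −0.39) to VBP1 at 0.12 (0.08 to 0.16), both prefoldin subunits. Of 11 measured heat shock factor partners and HSF1-dependent genes, 6 were above 0, and 7 when centred, the highest being ZFAND2A, an arsenite-inducible gene, at 0.58 (0.40 to 0.76).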

How the data were processed

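RNA of 1 iMQT_020 and 1 vehicle library was mapped by the authors to GRCh38 with HISAT2 and Bowtie2, per the labels' protocols; the submitters' processing notes name StringTie and edgeR. The authors deposited a count, an FPKM and a TPM value per gene; the sources used here do not give the counting, strand or read length. The deposited counts have the form of estimated counts rounded up: among snoRNA genes of 1 to 5 counts with a single transcript, the reads implied by FPKM lay 0.05 to 1 below the deposited count in 93.5% of genes with iMQT_020 and 91.8% with vehicle. A second deposited table repeats the FPKM values for 20787 genes.

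Counts were scaled by TMM (edgeR 4.0.16, R 4.3.3; factors 1.002 for iMQT_020 and 0.998 for vehicle). Log2 ratios of CPM used a prior count of 0.5, with exact Clopper-Pearson 95% intervals (scipy 1.17.1) that cover counting error only. For TPM and FPKM the scale was log2(value + 1). GC content and length came from canonical transcripts of GENCODE 44. The computation of the intervals was checked on counts simulated with counting error only for 14520 genes, and 95.2% held the true ratio. As the simulation held the same error that the intervals assume, it says nothing of other differences between libraries. No test across replicates could be made with 1 library per group. Members, families and lists of other chaperone genes were chosen with earlier results of these data known. Values are given for members past 2-fold, every TRiC subunit, the most abundant, highest and lowest member of each family, the inducible and constitutive genes, and by name for the rest. Other scalings, count minimums and units were tried. Overlap with other genes and wider sets of ER and other HSP70 genes were added as alternatives after the data were seen.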

Additional observations from a re-analysis of the deposited data

How the results depend on the processing

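No paired analysis was possible because each treatment has 1 library, and no library could be left out. The 1 member at least 2-fold higher with iMQT_020 became 0 with a minimum of 200 counts, a prior count of 5, deposited TPM or deposited FPKM, and 2 with no minimum or with a 1.5-fold rule. The 0 members at least 2-fold lower became 1 with no minimum and 2 with the 1.5-fold rule. The median log2 ratio of HSP110 was −0.019 when centred on GC content and length. That of the small heat shock proteins was −0.12 when centred and −0.19 with no minimum. That of HSPD1 and HSPE1 was 0.0020 and that of the mitochondrial members −0.019 with deposited TPM. Adding DNAJB12 and DNAJB14 to the other 5 ER members turned their median to 0.077, against −0.06 without them. The other 197 recomputed counts and medians stayed within 1.5 times the count, or within the range that order statistics over the members give the median. For small families, BAG and HSF among them, that range runs from the lowest to the highest member and is wide. Within it, centring turned the median of BAG from 0.089 to −0.0081 and that of HSF from −0.089 to 0.053. The cause was not tested. Among single genes, HSPA4, HSPA4L, HSF1, BAG5, DNAJB9 and DNAJB11 changed sign when centred, CCT5, CCT6A, HSPD1 and BAG2 with deposited TPM, CCT8 with median-of-ratios scaling, and CCT8 and BAG2 with deposited FPKM. Of the 62 members, 27 overlap another gene. Among the 28 measured members that do not, 20 were above 0, with a median of 0.083. Among the 22 measured members that do, 11 were above 0, with a median of 0.0094. Over all measured genes 47.3% were above 0. The 2 libraries limit every difference to a description, and depth limits the 12 members that were not measured.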
